A study of Sus scrofa with 67 samples.

Results

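A set of 93 genes had a mean level on day 9 of the pig oestrous cycle, the middle of the luteal phase, of at most 0.5 of that on day 0 in the endometrium, the ovary and the oviduct alike. They were chosen from 25322 genes in a table of RNA-seq read counts. The level of a gene is its CPM, the count divided by the library total and multiplied by 1e+06, and the ratio that chose the members is the mean CPM plus 1 on day 9 over the mean CPM plus 1 on day 0, taken in each tissue. The 3 ratios are therefore a description of how the set was made, and no test was run on them. At most 0.5 was found for 1618 endometrial, 2276 ovarian and 686 oviductal genes, of which the members are 5.75%, 4.09% and 13.6%. A symbol was paired with 59 of the members, and 34 have an Ensembl identifier only.

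The tissues came from crossbred (Landrace × Yorkshire) gilts, each collected once at an interval of 3 days from day 0 to day 18, where day 0 is the onset of oestrous behaviour. The labels name no treatment in any of the 21 groups of tissue and day. The endometrium was taken without myometrium, the oviduct was the ampulla and the ovary was taken whole, so that follicles and corpora lutea enter the ovarian libraries together. The table holds 66 libraries, 2 to 4 in a group, with 8962103 to 13442083 counts each, and 3 counts are worth 0.223 to 0.335 CPM. The groups of 4 hold more libraries than the number of gilts a day in the methods. Whether each library is a separate gilt is thus not known, and p-values measure the spread between libraries. Columns of 1 day that carry the same number tended to go together between tissues. Over 14421 genes, the deviations of a library from its group mean correlated best with those of the same-numbered library of the other tissue for 19 of 21 endometrial libraries against the oviduct, 14 of 21 against the ovary and 15 of 21 ovarian libraries against the oviduct. The 3 tissues are therefore not read as independent of each other, and no test compared them. In whole tissue, fewer cells of a type and less RNA per cell cannot be told apart.

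In the pig, as in other mammals, oestrogen from the follicles is high around oestrus, progesterone from the corpora lutea dominates the middle of the cycle, and regression of the corpora lutea lets a new follicular phase begin. Oestrogen acts through its nuclear receptors to induce the progesterone receptor and secreted proteins of the oviduct and uterus, and progesterone acting through that receptor opposes many of these effects. The members hold genes of that response, together with genes of Wnt signalling, the extracellular matrix, smooth muscle and innate immunity. Hormone levels were not part of the files used here.

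The median log2(CPM + 1) of the members in an endometrial library averaged 5.05 ± 0.21 on day 0, 2.36 ± 0.06 on day 9 and 4.36 ± 0.44 on day 18 (SD, n = 3 libraries each). In the ovary it was 4.67 ± 0.19, 2.77 ± 0.07 and 4.24 ± 0.46 on the same days (SD, n = 3). In the oviduct it was 5.94 ± 0.34, 3.55 ± 0.07 and 5.22 ± 0.63 (SD, n = 3). The values of days 0 and 9 are those that chose the members. Over all genes with a day 0 mean of at least 1 CPM the median ratio of day 9 to day 0 was 0.901, 0.786 and 1.18 in endometrium, ovary and oviduct, so that the level of a typical gene also shifted with this scaling.

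**Figure D1:**
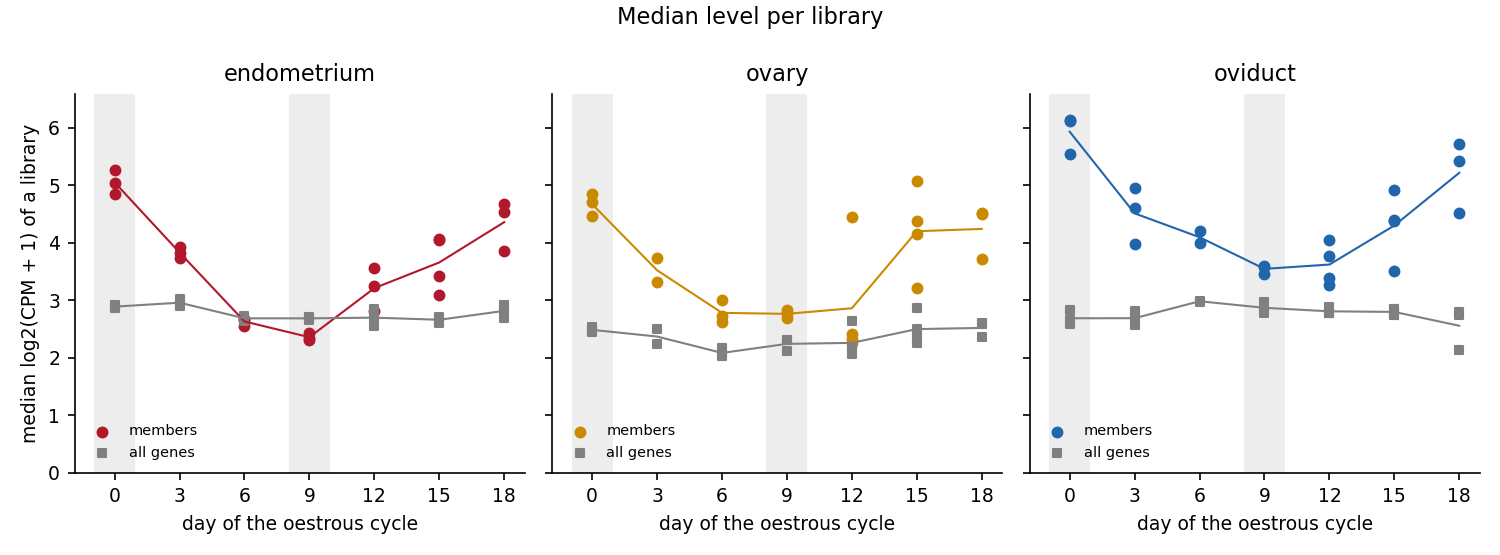
Median log2(CPM + 1) over the 93 members (coloured circles) and over all genes with a count (grey squares) in each of the 66 libraries, by day of the oestrous cycle, with lines through the mean of each day and grey bands on days 0 and 9, which chose the members. The member medians on day 9 lie between 2.31 and 3.60, and 1 ovarian library of day 12, at 4.45, lies apart from the other 3 of its group.

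Relative to day 0 and in order of days 3, 6, 9, 12, 15 and 18, the median ratio was 0.603, 0.280, 0.310, 0.386, 0.443 and 0.686 in the endometrium. The ovary had 0.450, 0.280, 0.322, 0.379, 0.769 and 0.824, and the oviduct 0.530, 0.376, 0.305, 0.305, 0.512 and 0.734. All of these ratios share the day 0 libraries, and that of day 9 was set by the rule. They are given without a test, and no difference in timing between tissues was tested. The lowest mean fell on day 9 for 34 members of the endometrium, on day 6 for 44 of the ovary and on day 12 for 40 of the oviduct. The ovarian count rests on library 1 of day 12, which lies apart from its group. Without it, an alternative chosen after seeing the data, the lowest ovarian mean fell on day 12 for 68 members (17 with it) and on day 6 for 16, and the day 12 median ratio was 0.210. The highest mean fell on day 0 for 55, 46 and 55 members, while 24 and 21 members of the ovary had it on days 15 and 18 and 23 of the oviduct on day 18. The 4 ovarian libraries of day 15 differed among themselves, with member medians of 5.07, 4.38, 4.15 and 3.22 on the log2(CPM + 1) scale. Their smooth muscle markers summed to 13649, 5217, 1570 and 847 CPM and their epithelial markers to 784, 26.1, 1011 and 707. Without library 1, an alternative chosen after seeing the data, 19 members had their highest ovarian mean on day 15 and the day 15 median ratio was 0.588. The part of these markers in the members' levels was not tested.

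**Figure D2:**
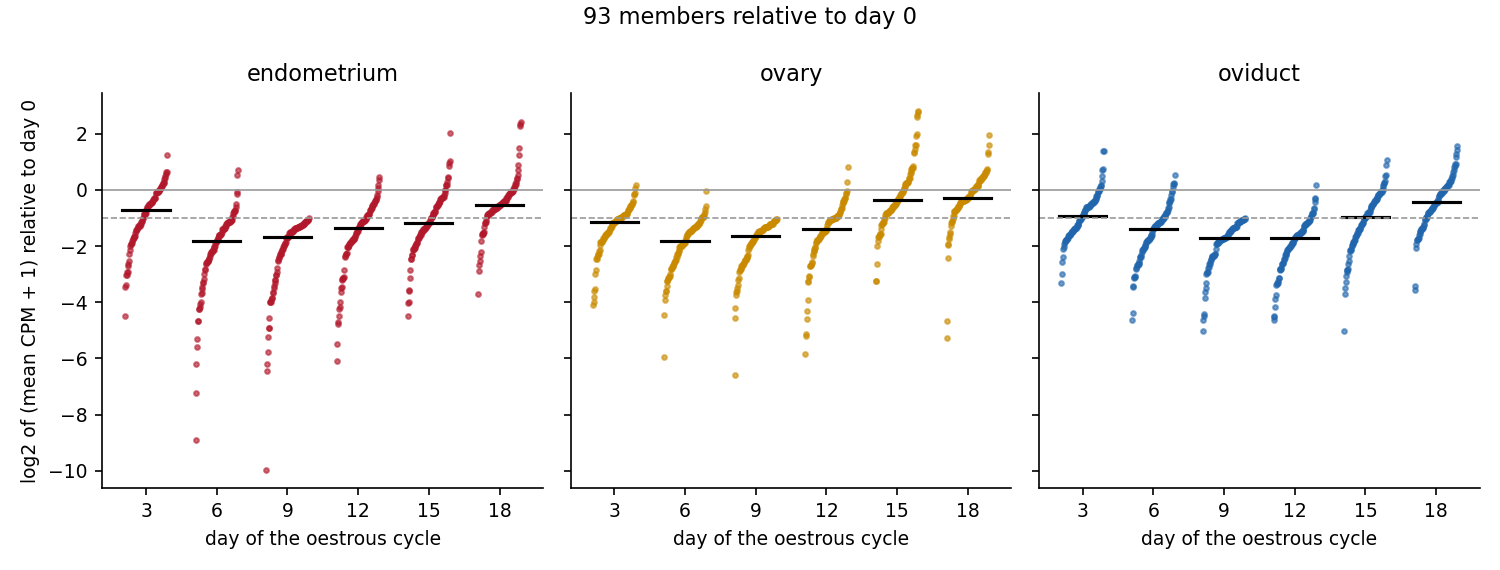
Log2 of the ratio of mean CPM plus 1 on each day to that on day 0, 1 point per member sorted within a day, with the median as a black line, the solid grey line at no difference and the dashed line at a ratio of 0.5. All 93 points of day 9 lie under the dashed line because the rule placed them there, and on day 18 the medians are 0.686, 0.824 and 0.734.

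Every library of day 9 lay below every library of day 0 for 85 members among endometrial, 75 among ovarian and 85 among oviductal libraries, and for 66 members in all 3 tissues. That pattern was met by 27.2%, 29.2% and 8.25% of all genes with counts on those days, and since it uses the contrast of the rule nothing is read from it. The members just inside the threshold were GCNT3, a glycosyltransferase, with a largest ratio of 0.492 (ovary), SLIT3, a guidance ligand, with 0.495 (endometrium) and ENSSSCG00000024936 with 0.498 (oviduct). Just outside it lay MMP9, a gelatinase, at 0.5004 (ovary), MYH11, the smooth muscle myosin heavy chain, at 0.507 (oviduct) and ALDH3A1, an aldehyde dehydrogenase, at 0.509 (oviduct).

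Days 3, 6, 12, 15 and 18 took no part in the rule. A pair of comparisons was tested on those days alone, with edgeR's quasi-likelihood test in each tissue and Benjamini-Hochberg adjustment over all genes tested: day 6 against day 3, the way into the luteal phase, and day 18 against day 12, the way out of it. A gene is called at an adjusted p under 0.05. At least 1 of the 6 tests called 67 of the 93 members, 38 in 1 test, 22 in 2 and 7 in 3, and 26 were called in none. Of the 16628 genes tested at least once, 33.1% were called in 1 test or more, 6.04% in 2 or more and 0.493% in 3 or more.

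In the endometrium 33 of 92 members tested fell from day 3 to day 6 and 0 rose, where 7.73% of 15257 genes were called lower. Their median log2 fold change was -1.04, against -0.01 over all genes, and 79 of the 92 were below 0. From day 12 to day 18 in the endometrium 22 members rose, beside 6.00% of all genes called higher, and 2 fell, beside 7.10% called lower. The median was 1.03 against 0.03, and 71 of 92 were above 0. The fall and the rise were both called for 15 members and for 1.59% of all genes. Left-out libraries changed these counts and those of all genes. Without library 2 of day 6, 16 members were called lower on day 6, beside 578 of 15529 genes. Without library 1 of day 3 it was 18 beside 609 of 15487, and without library 1 of day 6, 21 beside 702 of 15532. On day 18, 7 members were called higher and 0 lower without library 2 of day 18, beside 175 and 104 of 15518 genes. Without library 3 of day 18 it was 10 and 0, beside 119 and 73 of 15510. Without library 1 of day 12, 9 were higher and 1 lower, beside 338 and 474 of 15503 genes. Without library 2 of day 12 it was 8 and 2, beside 284 and 487 of 15522.

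In the oviduct 46 of 92 members rose from day 12 to day 18 and 0 fell, where 9.53% of 15518 genes were called higher. The median log2 fold change was 1.72 against 0.00 over all genes, and 91 of 92 members were above 0. This call rests on 1 library: without library 2 of day 18 no gene was called (0 of 92 members, with 44 at an unadjusted p under 0.05, beside 25.3% of all genes, and 88 above 0). Without library 2 or 3 of day 12 the count was 13, beside 327 of 15487 and 368 of 15500 genes called higher. Without library 4 of day 12 it was 22, beside 623 of 15512. The median of all genes in that library of day 18 was 2.13 on the log2(CPM + 1) scale, against 2.74 and 2.80 in the other 2 of its group. The part of this in the result was not tested. From day 3 to day 6 edgeR called 0 members and 0% of all genes in the oviduct, with 17 members at an unadjusted p under 0.05 beside 5.92% of all genes. DESeq2 called 4, all lower, beside 0.146% of all genes, and the members' median was -0.93 against -0.01.

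In the ovary edgeR called 0 of 93 members in both comparisons, where 0% of 15409 genes passed. From day 3 to day 6 an unadjusted p under 0.05 was met by 2 members and by 4.99% of all genes, and DESeq2 called 0. With only those 2 days fitted, edgeR called 2 members lower, beside 0.0935% of all genes. From day 12 to day 18 an unadjusted p under 0.05 was met by 32 members and 21.5% of all genes, DESeq2 called 26 higher beside 4.19% of all genes, and 85 of 93 members were above 0 with a median log2 fold change of 1.14 against 0.03. With all 7 days in 1 fit edgeR called 5 members higher, beside 0.620% of all genes. The comparison turned on library 1 of day 12. Without it 47 of 92 members rose and 0 fell, where 7.51% of 15303 genes were called higher.

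That ovarian library stood apart in its cell markers as well. The summed CPM of the luteal markers LHCGR and CYP11A1 was 207 in it and 5185 to 9088 in the other 3 libraries of day 12, and the summed granulosa markers FSHR and INHA were 2349 in it and 80.8 to 121 in the others. Its member median of 4.45 compares with 2.26, 2.32 and 2.42. On day 0 the granulosa sum ran from 108 in library 1 to 3265 and 8190 in the other 2, and on day 18 from 33.6 to 4376. The ovarian smooth muscle sum, which includes the members DES and CNN1, was 861 to 2549 CPM on day 0, 415 to 603 on day 9 and 1322 to 3360 on day 18. The marker sums thus differed widely between libraries of 1 day, and their part in the members' levels was not tested.

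The members with symbols were sorted into groups by what they are known to do after their values were seen, so that the counts of a group are a description. They stand beside the shares of all genes given above, 7.73% lower on day 6 and 6.00% higher on day 18 in the endometrium and 9.53% higher on day 18 in the oviduct, and whether a group differs from the other members was not tested.

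The steroid response has 3 members, PGR, GREB1 and OVGP1. PGR encodes the progesterone receptor. In the oviduct its CPM was 83.1, 116 and 95.1 on day 0, 19.4, 18.2 and 12.0 on day 9, 13.4, 15.1, 15.4 and 15.9 on day 12, and 57.9, 144 and 125 on day 18. All libraries of day 18 lay above all of day 12, and PGR rose (log2 fold change 3.14 ± 0.60 SE, adjusted p = 0.0133 by edgeR). In the endometrium it was 71.5, 78.7 and 89.4 on day 0 and 24.5, 28.6 and 18.8 on day 9, and the values 19.4, 26.9 and 17.2 on day 12 and 19.3, 50.7 and 35.1 on day 18 overlap (0.66 ± 0.31, adjusted p = 0.166). In the ovary day 0 gave 4.46, 163 and 165 CPM, so that library 1 is below the 14.02, 14.9 and 6.07 of day 9 and the ratio of 0.113 rests on the other 2. The ovary stayed low on day 18, at 1.86, 5.04 and 3.38 CPM.

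OVGP1, the oviductal glycoprotein 1 secreted around the time of fertilisation, had the highest level of any member. In the oviduct it took 168130, 51296 and 143335 CPM on day 0 and up to 20.3% of a library on day 3, against 1141, 7531 and 5848 CPM on day 9. It was 12735, 3865, 9458 and 29117 CPM on day 12 and 10044, 38226 and 62851 on day 18, which overlap (log2 fold change 1.68 ± 0.97, adjusted p = 0.230). A share this large lowers the CPM of every other gene in those libraries, and with OVGP1 left out of the totals, an alternative chosen after seeing the data, 104 genes met the rule, all 93 members among them.

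OVGP1 was also read in the other 2 tissues at far lower levels. The ovary had 544, 1971 and 768 CPM on day 0 and 62.0, 37.1 and 35.5 on day 9, and the endometrium 31.6, 27.0 and 119, then 4.07, 2.48 and 1.73. The ciliated cell markers FOXJ1, TEKT1 and CCDC39 summed to 26.0 to 47.7 CPM in the ovary on day 0 and 12.1 to 24.5 on day 9, against 1227 to 1843 in the oviduct on day 0. On day 15 ovarian library 1 had 1715 CPM of OVGP1 and a ciliated sum of 303, while the other 3 had 26.9, 28.7 and 81.2 CPM of OVGP1 and sums of 16.7 to 24.8. Both were thus high in the same library. The part of oviductal RNA in the ovarian libraries was not tested.

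GREB1, a coregulator of the oestrogen receptor, had 21.9, 51.5 and 31.7 CPM on day 0 and 2.85, 1.19 and 2.65 on day 9 in endometrial libraries, 36.2, 77.9 and 169 and then 9.48, 19.8 and 8.36 in the ovary, and 17.8, 17.5 and 17.7 and then 6.69, 1.62 and 10.9 in the oviduct. Its change from day 12 to day 18 was not called in any tissue (log2 fold change 1.07 ± 0.66, 0.98 ± 1.25 and 0.79 ± 0.59). Of a list of 12 receptors and classic oestrogen targets, 11 were found and 8, 6 and 4 had a ratio of at most 0.5 in endometrium, ovary and oviduct. These counts include the 3 members PGR, GREB1 and OVGP1, placed there in every tissue by the rule. Nothing is thus read from them beside the 11.2%, 16.1% and 4.79% of all genes with a day 0 mean of at least 1 CPM. Among the 10 genes of the list tested in the endometrium C3 and LTF fell from day 3 to day 6, beside 7.73% of all genes called lower. From day 12 to day 18 MYC and OXTR rose there and IGF1 fell, beside 6.00% of all genes called higher and 7.10% lower. In the oviduct IGF1 and PGR rose from day 12 to day 18 among 10 tested, beside 9.53% of all genes. IGF1 was thus called in opposite directions in those tissues, and no difference between tissues was tested.

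**Figure D3:**
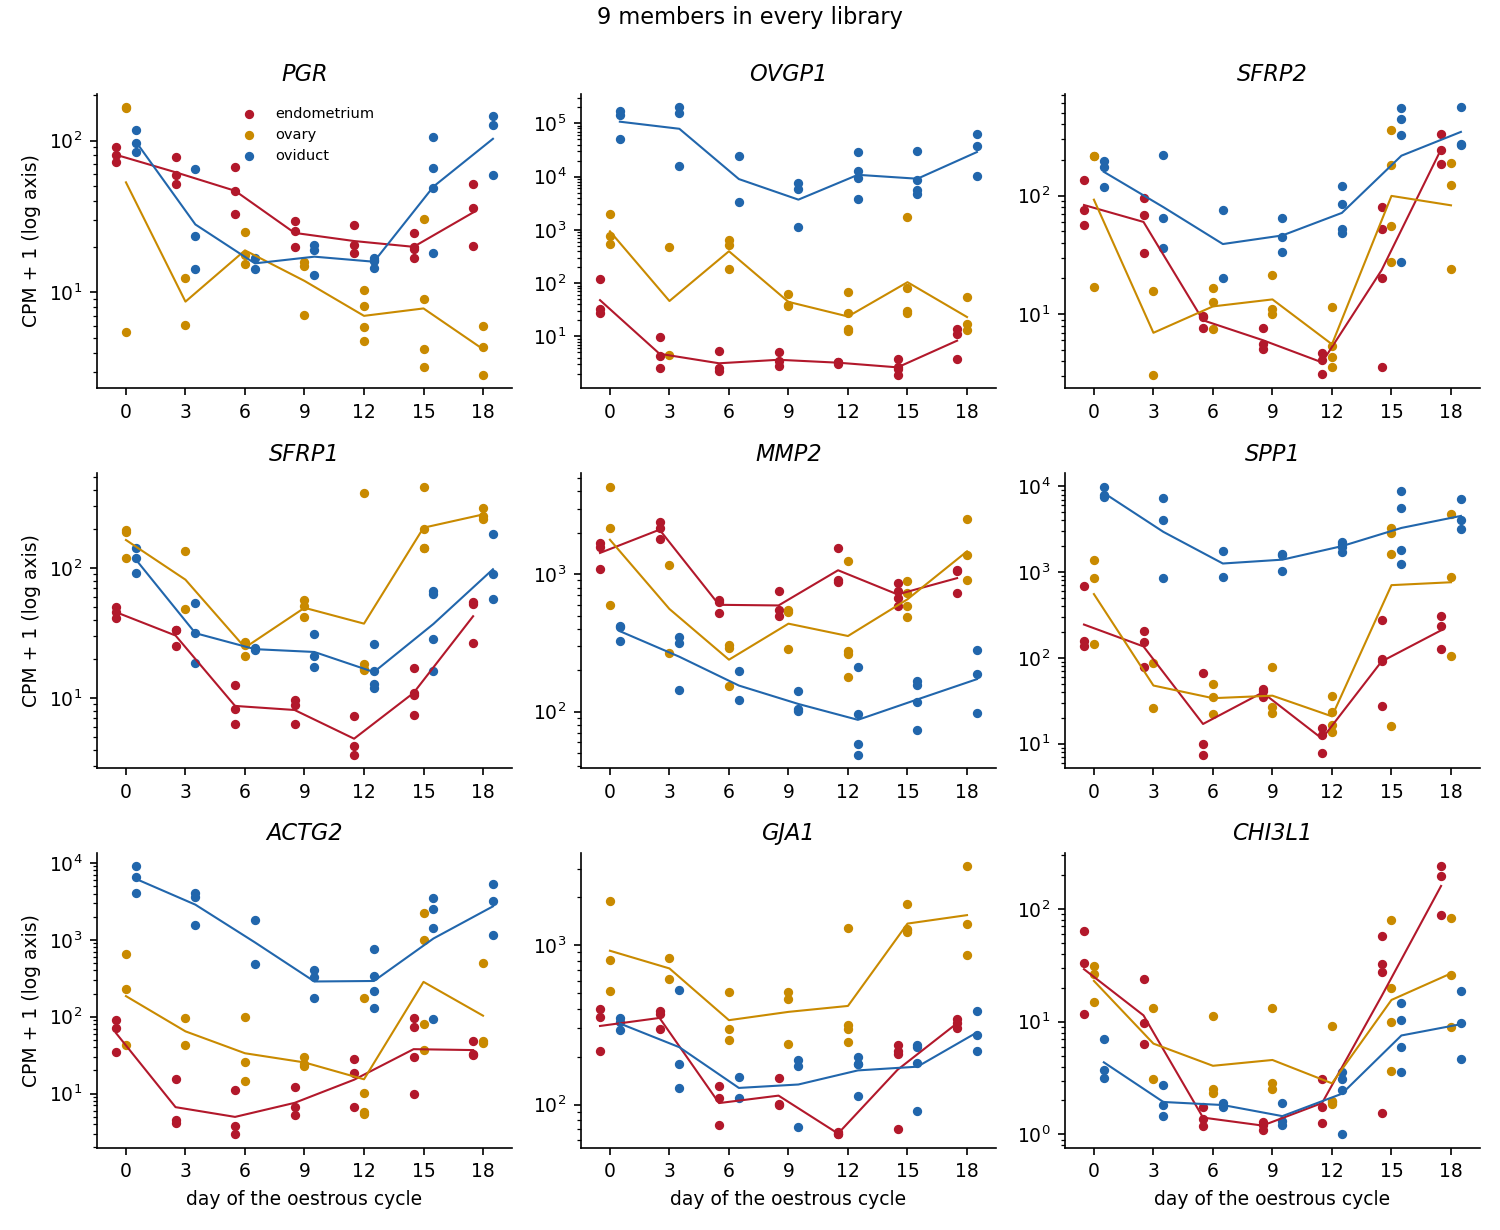
CPM plus 1 on a log axis for 9 members in every library of the endometrium (red), ovary (yellow) and oviduct (blue), by day of the cycle, with lines through the mean of log2(CPM + 1). In the endometrium SFRP2 spans 2.13 to 3.71 CPM on day 12 and 184 to 329 on day 18, and OVGP1 in the oviduct stays above its level in the other 2 tissues on every day.

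The secreted signals are SFRP1 and SFRP2, which bind Wnt ligands outside the cell, the ligand WNT2, CHRDL2, an antagonist of bone morphogenetic proteins, SLIT3, and VASH1, an inhibitor of blood vessel growth. In the endometrium 4 of the 6 fell from day 3 to day 6 and 2 rose from day 12 to day 18, and in the oviduct 5 rose from day 12 to day 18 (7.73%, 6.00% and 9.53% of all genes). SFRP2 had the widest swing of them in the endometrium, with 75.0, 134 and 55.2 CPM on day 0, 68.1, 93.6 and 32.0 on day 3, 6.65, 8.50 and 8.65 on day 6, 6.72, 4.65 and 4.07 on day 9, 3.71, 2.13 and 3.09 on day 12, and lastly 184, 240 and 329 on day 18. Day 6 lies wholly below day 3 (log2 fold change -2.82 ± 0.79, adjusted p = 0.0272 by edgeR) and day 18 wholly above day 12 (6.32 ± 0.93, adjusted p = 0.00663). In the oviduct SFRP2 was 119, 51.2, 83.9 and 47.8 CPM on day 12 and 271, 558 and 268 on day 18 (2.57 ± 0.83, adjusted p = 0.0495), and in the ovary 10.4, 3.36, 2.57 and 4.44, then 189, 23.1 and 123. The ovarian groups do not overlap either, with an adjusted p = 0.106 (4.38 ± 0.95).

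SFRP1 in the endometrium was 32.3, 32.3 and 24.2 CPM on day 3, 5.38, 7.21 and 11.7 on day 6, 2.68, 3.31 and 6.35 on day 12 and 25.7, 53.7 and 52.4 on day 18. It fell by 1.68 ± 0.41 and rose by 3.31 ± 0.44 on the log2 scale, with adjusted p = 0.0147 and 0.00663 by edgeR. In the oviduct it rose from 25.0, 15.1, 10.9 and 11.8 CPM on day 12 to 56.6, 182 and 88.9 on day 18 (3.11 ± 0.57, adjusted p = 0.0133). In the ovary library 1 of day 12 had 381 CPM and the other 3 had 15.6, 15.8 and 17.5, against 237, 290 and 251 on day 18. WNT2, their ligand, had 133, 104 and 129 CPM on day 3 and 34.9, 58.8 and 57.6 on day 6 in endometrial libraries (-1.09 ± 0.24, adjusted p = 0.00901). On day 18 it was at 53.8, 91.1 and 101 there, beside 54.2, 70.8 and 61.1 on day 12 (0.33 ± 0.24, adjusted p = 0.373), while in the oviduct it rose from 8.47 to 20.9 CPM on day 12 to 35.4 to 98.2 on day 18 (2.47 ± 0.54, adjusted p = 0.0163).

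The matrix group has 12 members: MMP2, COL5A1, COL12A1, COL17A1, MFAP2, SPP1, SULF2, CCDC80, HAPLN3, ADAMTSL5, MFGE8 and GPC3. In the endometrium 7 of them fell from day 3 to day 6 and 3 rose from day 12 to day 18, and in the oviduct 4 rose, where the shares of all genes were 7.73%, 6.00% and 9.53%. MMP2, which cleaves collagens and gelatin, lay higher on day 3 than on day 0 in the endometrium, with 2377, 1806 and 2172 CPM against 1673, 1095 and 1582. It dropped to 525, 631 and 644 on day 6 (log2 fold change -1.63 ± 0.25, adjusted p = 0.00136 by edgeR), and its day 18 values of 726, 1045 and 1078 overlap the 906, 872 and 1536 of day 12. MFAP2, a component of elastic microfibrils, both fell, from 71.3, 45.2 and 36.2 CPM on day 3 to 6.86, 5.27 and 9.54 on day 6 (-2.63 ± 0.53, adjusted p = 0.00556), and rose, from 5.18, 10.03 and 10.17 on day 12 to 25.2, 38.9 and 52.2 on day 18 (2.11 ± 0.52, adjusted p = 0.0237). It rose in the oviduct as well, from 9.05, 4.46, 6.00 and 4.40 CPM to 10.4, 36.0 and 15.4 (2.10 ± 0.49, adjusted p = 0.0188).

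SPP1, the secreted phosphoprotein osteopontin, had endometrial values of 679, 156 and 136 CPM on day 0 and 39.8, 34.2 and 41.8 on day 9. It rose there from 11.7, 6.72 and 14.3 on day 12 to 234, 304 and 127 on day 18 (4.28 ± 0.94, adjusted p = 0.0173 by edgeR). In the oviduct it took 9912, 7824 and 7537 CPM on day 0 and 1642, 1593 and 1040 on day 9, and in the ovary 1367, 845 and 146, then 77.4, 25.9 and 21.6. The ovarian values of day 18 were 4735, 104 and 885 CPM, above all 4 of day 12 at 12.6 to 34.8 (6.46 ± 1.44, adjusted p = 0.106), and the library with 4735 also had an epithelial marker sum of 763 CPM beside 21.7 and 24.3 in the other 2. COL5A1, a chain of fibrillar collagen, was not called in either comparison of any tissue. In the oviduct it had 384, 375 and 381 CPM on day 0 and 78.3, 66.5 and 89.1 on day 9, the contrast that chose it. COL5A1 is the only member among 14 genes found of a list of 15 matrix genes. Of these genes 7, 4 and 10 had ratios of at most 0.5 in endometrium, ovary and oviduct, COL5A1 among them by the rule. The shares of all genes with a day 0 mean of at least 1 CPM were 11.2%, 16.1% and 4.79%. The ovarian count was 2 without library 3 of day 0, an alternative chosen after seeing the data.

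GPC3, a glypican of the cell surface, and ENSSSCG00000029399 are the 2 members that fell from day 12 to day 18 in the endometrium (named after their values were seen). Both calls were lost, with 0 members lower, without library 3 of day 12 and without library 1, 2 or 3 of day 18. Over all genes 614 of 15525, 582 of 15525, 104 of 15518 and 73 of 15510 were called lower in those fits. GPC3 was 6.997, 10.6 and 13.9 CPM on day 12 and 3.63, 6.32 and 4.005 on day 18 there (-1.25 ± 0.33, adjusted p = 0.0277 by edgeR), and 10.1, 6.14, 5.04 and 9.77 and then 11.6, 17.6 and 32.8 in the oviduct (1.64 ± 0.49, adjusted p = 0.0376). The groups do not overlap in either tissue, in opposite directions. ENSSSCG00000029399 was 13.99, 6.93 and 14.7 CPM, then 2.88, 4.21 and 5.49 (-1.57 ± 0.48, adjusted p = 0.0443).

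The smooth muscle genes are ACTG2, the enteric smooth muscle actin, CNN1 (calponin), DES (desmin), TAGLN (transgelin) and KCNMB1, a subunit of a potassium channel. None of the 5 was called in the endometrium or ovary, and ACTG2 and CNN1 rose from day 12 to day 18 in the oviduct, whose ampulla has a muscle coat. ACTG2 there was 4017, 9023 and 6579 CPM on day 0, 405, 327 and 176 on day 9, 766, 129, 334 and 215 on day 12 and 1161, 5398 and 3215 on day 18 (3.49 ± 0.93, adjusted p = 0.0270 by edgeR). CNN1 was 721, 147, 287 and 230 on day 12 and 976, 1978 and 1027 on day 18 (2.23 ± 0.72, adjusted p = 0.0494). DES had 2972, 4365 and 4277 CPM on day 0 and 2286, 1886 and 1247 on day 9, and TAGLN 1687, 3077 and 3025, then 1313, 1096 and 715. In the ovary library 1 of day 0 had the lowest values, at 41.6, 41.3, 41.5 and 729 CPM for ACTG2, CNN1, DES and TAGLN, against 21.6 to 28.9, 17.1 to 23.2, 47.2 to 52.9 and 202 to 298 on day 9. For DES that library lies below day 9, so the ovarian ratio of 0.178 rests on 169 and 646 CPM in the other 2.

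The markers of smooth muscle, 2 of which (DES and CNN1) are members, summed to 7572 to 12801 CPM in the oviduct on day 0, 2430 to 4513 on day 9, 1275 to 6935 on day 12 and 7206 to 14262 on day 18. The other 2 markers, MYH11 and ACTA2, are no members and were not called in the oviduct from day 12 to day 18. MYH11 had mean CPM of 631 and 714 (log2 fold change 0.37, adjusted p = 0.752 by edgeR) and ACTA2 of 903 and 2889 (1.98, adjusted p = 0.122). Of 12 genes found of a list of muscle contraction, 5, 6 and 8 had ratios of at most 0.5 in endometrium, ovary and oviduct. These counts include the 3 members ACTG2, DES and CNN1, placed there in every tissue by the rule. Nothing is thus read from them beside the 11.2%, 16.1% and 4.79% of all genes with a day 0 mean of at least 1 CPM. From day 12 to day 18 in the oviduct 5 of 11 genes of the list tested rose, the members ACTG2 and CNN1 among them, beside 9.53% of all genes. How much muscle each piece of oviduct held was not tested. ACTG2 resembles other actins in sequence, and how reads that fit several genes were counted is not given in the sources used here.

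The immune group has 6 members: the complement components C5 and C7, the chemokine CXCL14, CHI3L1, a secreted chitinase-like glycoprotein, TNFRSF1B, a receptor for tumour necrosis factor, and SLC15A3, a lysosomal peptide transporter. CHI3L1 had the highest fitted rise of the named members in the endometrium, from 2.07, 0.747 and 0.272 CPM on day 12 to 194, 86.4 and 237 on day 18 (7.33 ± 1.23, adjusted p = 0.00940 by edgeR). The day 12 values stand for 24, 7 and 3 counts, and the groups do not overlap. It fell from 22.8, 8.81 and 5.30 CPM on day 3 to 0.739, 0.370 and 0.178 on day 6, which are 7, 4 and 2 counts (-4.67 ± 1.27, adjusted p = 0.0242). In the oviduct CHI3L1 rose from 2.56, 2.12, 1.501 and 0 CPM to 3.69, 17.8 and 8.70 (3.02 ± 0.83, adjusted p = 0.0297). CXCL14 and SLC15A3 also fell from day 3 to day 6 in the endometrium, CXCL14 rose there from day 12 to day 18, and C5 and TNFRSF1B rose in the oviduct. CXCL14 had the lowest ovarian ratio of all members, 0.0103, set by 1549 and 1105 CPM in 2 libraries of day 0 while the third had 22.7.

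Among receptors and junction proteins GJA1, connexin 43 of gap junctions, was called in both endometrial comparisons. It had 371, 386 and 295 CPM on day 3, 73.1, 108 and 130 on day 6, 63.9, 64.2 and 66.1 on day 12 and 301, 344 and 325 on day 18. The 2 changes were -1.56 ± 0.35 and 2.26 ± 0.35 on the log2 scale (adjusted p = 0.00863 and 0.00858 by edgeR). In the ovary it was 1285, 246, 312 and 298 CPM on day 12 and 869, 3122 and 1352 on day 18, where the first value is that of library 1. The other 7 of the group are HTR7 (a serotonin receptor), S1PR3 (a sphingosine 1-phosphate receptor), CNTFR (the receptor of ciliary neurotrophic factor), CD109, the cadherin CDH20, DRP2 and FBLIM1. FBLIM1, CD109, CNTFR and DRP2 fell from day 3 to day 6 in the endometrium, CD109, HTR7 and DRP2 rose there from day 12 to day 18, and FBLIM1, S1PR3, HTR7 and CNTFR rose in the oviduct.

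**Figure D4:**
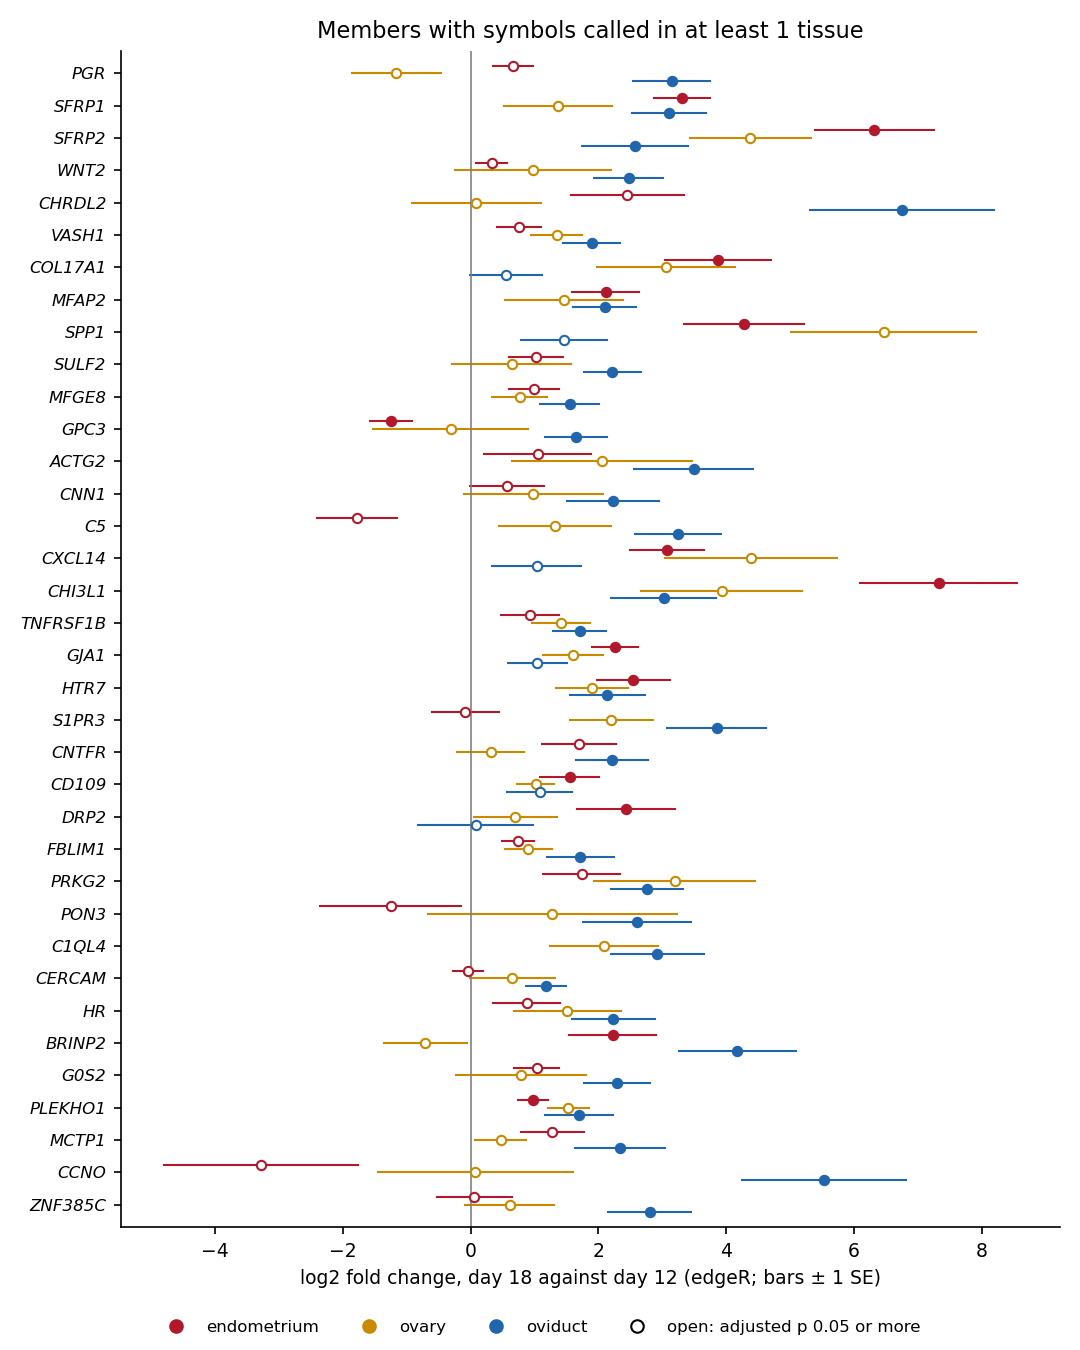
Log2 fold change of day 18 against day 12 by edgeR, with bars of 1 SE, for the 36 members with symbols called in at least 1 tissue, in the endometrium (red), ovary (yellow) and oviduct (blue). Filled points have an adjusted p under 0.05, none of which is ovarian, and GPC3 at -1.25 in the endometrium is the filled point below 0.

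The remaining 19 members with symbols are VNN1, GCNT3, PON3, C1QL4, CERCAM, HSPB8, STMN2, HR, PDZRN3, TMEM35A, BRINP2, G0S2, SMDT1, PLEKHO1, MCTP1, NCCRP1, CCNO, ZNF385C and PRKG2. In the endometrium 6 of them fell from day 3 to day 6 and 2 rose from day 12 to day 18, and 11 rose in the oviduct from day 12 to day 18, against 7.73%, 6.00% and 9.53% of all genes. PLEKHO1, a protein with a pleckstrin homology domain, was called in 3 tests. In the endometrium it had 101, 111 and 74.1 CPM on day 3, 31.8, 33.9 and 47.1 on day 6, 58.3, 30.7 and 50.0 on day 12 and 94.8, 88.9 and 98.999 on day 18. Both changes were called (-1.15 ± 0.24 and 0.97 ± 0.24, adjusted p = 0.00635 and 0.0225 by edgeR), as was its rise in the oviduct (1.70 ± 0.54, adjusted p = 0.0468). BRINP2 fell and rose in the endometrium, from 8.40, 6.13 and 4.78 CPM to 0.211, 0.277 and 0.981, and from 0.605, 0.853 and 2.09 to 2.13, 9.65 and 6.27. In the oviduct it rose from 0.107 to 0.880 CPM on day 12 to 6.85, 7.64 and 7.11 on day 18 (4.18 ± 0.92, adjusted p = 0.0165). CCNO, a cyclin of cells that form many cilia, rose in the oviduct from 1.48, 4.35, 2.57 and 4.30 CPM to 5.86, 154 and 203 (5.53 ± 1.29, adjusted p = 0.0187), where the ciliated cell markers summed to 1172 to 1822 on day 12 and 1159 to 1718 on day 18. In the endometrium CCNO was 0, 1.05 and 0 CPM on day 18, against 1.38, 0.107 and 8.35 on day 12.

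Of the 34 members with no symbol, 8 fell from day 3 to day 6 and 9 rose from day 12 to day 18 in the endometrium, and 16 rose in the oviduct, with 7.73%, 6.00% and 9.53% over all genes. ENSSSCG00000022913 was among the highest members, with endometrial values of 3706, 4659 and 3368 CPM on day 0, 15.3, 105 and 35.9 on day 9 and 5272, 3259 and 2823 on day 18. ENSSSCG00000004179 had the lowest endometrial ratio, 0.00100, from 2806, 1125 and 943 CPM on day 0 to 0.611, 0.495 and 0.611 on day 9, and was 1863, 3186 and 2879 on day 18. Both fell from day 3 to day 6 and rose from day 12 to day 18 there. ENSSSCG00000022258 had 0 counts in all 3 endometrial libraries of day 9, 16.6, 43.0 and 27.0 CPM on day 0 and 8.002, 43.5 and 30.04 on day 18.

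For some members the level followed the number of the library across tissues. In 4 members, SMDT1, a subunit of the mitochondrial calcium uniporter, ENSSSCG00000014562, ENSSSCG00000027958 and ENSSSCG00000030767, deviations from the group mean in same-numbered libraries had a Pearson r of 0.75 to 0.97 in each pair of tissues (21 pairs of libraries, a description), and 0.236% of the 14421 genes exceeded 0.7 in all 3 pairs. ENSSSCG00000030767 on day 0 had 58.2, 3.14 and 45.6 CPM in the endometrium, 52.3, 0.621 and 23.2 in the ovary and 36.5, 0 and 28.4 in the oviduct. On day 9 it had 2.44, 1.39 and 23.1, then 1.40, 0.849 and 18.8, then 1.40, 1.30 and 26.2. Library 2 is the lowest of day 0 and library 3 the highest of day 9 in every tissue, and the days overlap. ENSSSCG00000014562 on day 0 had 1.42, 24.6 and 23.2 CPM in the endometrium, 1.11, 25.6 and 21.0 in the ovary and 1.20, 17.1 and 17.4 in the oviduct. For such members a low ratio in 3 tissues is not 3 separate observations, and what sets their level in a library was not tested.

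The members are not independent of each other. Over the 66 libraries the log2(CPM + 1) of 18 of the 4278 pairs of members had a Pearson r above 0.95, a description that includes differences between tissues. ENSSSCG00000017581 and ENSSSCG00000029074 had 0.993, COL17A1 and ENSSSCG00000021131 had 0.990, GREB1 and ENSSSCG00000008626 had 0.981, ACTG2 and CNN1 had 0.979 and SULF2 and ENSSSCG00000007457 had 0.973. Whether identifiers with no symbol are pieces of the named gene beside them was not tested. In the RefSeq gene order of Sscrofa11.1, 2 pairs of members are neighbours, COL12A1 with CD109 and HAPLN3 with MFGE8.

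The list of cell cycle genes holds no member. Of 18 cell cycle genes found of 28 listed, 16 had a ratio of at most 0.5 in the endometrium and 12 in the oviduct but 0 in the ovary. The shares of all genes with a day 0 mean of at least 1 CPM were 11.2%, 4.79% and 16.1%. From day 12 to day 18 in the oviduct 13 of the 18 rose (9.53% of all genes). The oviductal count of ratios rests on 1 library: without library 2 of day 0 it was 1 of 18, an alternative chosen after seeing the data. Lists of steroid hormone synthesis (4 genes found), cholesterol synthesis (12), collagen folding (7) and leukocytes (7) hold 0 members either. All 12 cholesterol genes rose in the oviduct from day 12 to day 18, beside 9.53% of all genes, with a median log2 fold change of 1.84. No gene of the oviduct was called without library 2 of day 18, as given above. In the endometrium none of the 12 was called, beside 6.00% of all genes higher and 7.10% lower, and the median was -0.64. In the ovary, where edgeR called no gene at all, the median was -3.07. That ovarian fit holds library 1 of day 12, which stands apart. No difference between tissues was tested. In the endometrium from day 3 to day 6, 3 of the 7 leukocyte genes fell, TYROBP, PTPRC and CD68, beside 7.73% of all genes.

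Sums of the markers of other cell types lay lower on day 9 than on day 0 in some tissues, as the members did by their rule, and lay otherwise in others. The fibroblast markers COL3A1, DCN, LUM and PDGFRA summed to 18226 to 21713 CPM on day 0 and 4681 to 9779 on day 9 in the endometrium, and to 4844 to 5834 and 1314 to 1528 in the oviduct. COL3A1 carries both sums, with means of 16832 and 5177 CPM in the endometrium and 4671 and 815 in the oviduct. In the endometrium mean DCN went from 2141 to 857 and LUM from 1016 to 633, while PDGFRA went from 34.5 to 47.0. In the oviduct LUM went from 362 to 120, DCN from 452.0 to 453.3 and PDGFRA from 7.6 to 8.8. The ovarian sums were 8898 to 11098 on day 0 and 11460 to 17758 on day 9. Mean COL3A1 went from 8644 to 14513 there and PDGFRA from 61.4 to 176 CPM, while DCN went from 1239 to 468 and LUM from 59.8 to 22.2. COL3A1 thus carries the higher ovarian sum, and the 4 markers split in direction. Their sums were 7765 to 9798 on day 3 and 4871 to 5537 on day 6 in the endometrium, and from day 12, at 12812 to 14917, to day 18, at 7656 to 12955, their range did not go up with that of the members. Over those days mean COL3A1 went from 12096 to 8629 CPM there and PDGFRA from 90.7 to 83.5, while DCN went from 946 to 1562 and LUM from 606 to 635. In the oviduct the fibroblast sums were 697 to 1764 CPM on day 12 and 1308 to 4308 on day 18. Mean COL3A1 went from 496 to 2068 in that tissue, DCN from 372 to 476 and LUM from 131 to 298, while PDGFRA went from 7.84 to 6.16. The endothelial markers PECAM1 and KDR summed to 348 to 468 CPM on day 0, 376 to 448 on day 3, 156 to 177 on day 6, 156 to 178 on day 9, 188 to 436 on day 12 and 422 to 519 on day 18 in the endometrium. The ciliated cell markers there summed to 422 to 618 CPM on day 0, 305 to 475 on day 3, 236 to 244 on day 6 and 106 to 231 on day 9. They summed to 122 to 242 on day 12, 181 to 231 on day 15 and 313 to 374 on day 18. The sums were thus low on days 6, 9 and 12, when the members were low. On day 15 the sums were still low, while the member median averaged 3.66, beside 3.21 on day 12 and 3.83 on day 3. Epithelial markers of the endometrium were at 1870 to 1940 CPM on day 0 and 2626 to 2819 on day 9, where mean KRT8 went from 815 to 1904 CPM and KRT18 from 196 to 247, while EPCAM went from 678 to 377 and CDH1 from 209.8 to 178.

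In the ovary the theca markers CYP17A1 and INSL3 summed to 126 to 3296 CPM on day 0, 39.7 to 99.1 on day 9, 148 to 1989 on day 12 and 32.1 to 2107 on day 18. The leukocyte markers PTPRC, CD68, CSF1R and LCP1 were at 61.8 to 964 CPM on day 0, 40.1 to 77.5 on day 9, 42.6 to 87.4 on day 12 and 76.6 to 947 on day 18 there, and at 92.3 to 171 on day 0 and 77.5 to 78.3 on day 9 in the endometrium. The markers of dividing cells, TOP2A, CCNB1, CDK1 and BUB1, summed to 6.14 to 10.8 CPM on day 12 and 46.0 to 259.9 on day 18 in the oviduct. In the oviduct luteal markers summed to 19.3 to 27.7 CPM on day 0, 133 to 232 on day 9 and 4.08 to 21.5 on day 18. Mean CYP11A1 there went from 22.3 on day 0 to 180 on day 9, and LHCGR from 1.185 to 1.206. Epithelial markers of the oviduct were at 1339 to 1579 CPM on day 0 and 2053 to 2560 on day 9. Among them mean KRT18 went from 206 to 120. The part of cell composition in the members' course was not tested.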

How the data were processed

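Poly(A) RNA of the 3 tissues was sequenced in paired reads, trimmed of the first 13 bases by the authors and mapped with tophat2 to Sscrofa10.2 with Ensembl genes. The processing notes of the submitters name FastQC, featureCounts, Cufflinks, Cuffdiff and edgeR. The deposited table holds whole-number counts per gene, not normalized. The labels and the methods differ on whether the library kit kept the strand, and the strand setting of the counting is not given in the sources used here. The table has 66 columns for 67 sample labels, and 1 endometrial sample of day 12 was not analysed here. Columns name the tissue and day and are numbered from 1, labels from 0, so that columns were mapped to groups only, and libraries are numbered here as in the table. No 2 libraries of a group agreed within sampling noise (chi-square per degree of freedom 10.8 to 349 over 74 pairs).

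CPM used the column total. Members were found by the rule given in the report, from which 1 gene was left out in advance. The members and the gene lists were chosen with earlier results of these data known. Symbols came from a table that paired 11804 of 25322 identifiers. Each tissue was fitted with edgeR 4.0.16 in R 4.3.3 (trimmed mean of M values, filterByExpr, robust quasi-likelihood test) on days 3, 6, 12, 15 and 18 only, and p-values were adjusted over all genes tested. DESeq2 1.42.0, its size factors in edgeR, no filter, other sets of days and libraries left out in turn were the alternatives. On simulated counts with 100 genes changed 2-fold and 100 changed 4-fold between days 12 and 18, edgeR recovered 20 and 79 with 3 false calls in the endometrium, 9 and 58 with 5 in the ovary, and 27 and 88 with 4 in the oviduct. Each gene was drawn independently around its own mean, so no simulated library shifts many genes together. These numbers thus do not cover fits that hold a library standing apart, such as ovarian library 1 of day 12.

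Genes were named by a rule: the 12 members with the highest mean CPM on day 0, the 6 with the smallest largest ratio, 3 on each side of the threshold, the 8 called in the most tests, and members of the gene lists. Other members are named to account for all with symbols, and their roles were assigned after they were known. The CPM worth of 3 counts covers counting error only, while SDs and standard errors hold the spread between libraries.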

Additional observations from a re-analysis of the deposited data

Results flagged for a closer look

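An outlying library was looked for in 15 groups of 4 libraries (the member median, and the named members called in the oviduct on day 12), of which chance flags about 1 in 20. The member median of ovarian library 1 of day 12, 4.45 on the log2(CPM + 1) scale, was separated from the other 3 by 0.926 of the group's range. PLEKHO1 in oviductal library 1 of day 12, at 84.8 CPM, was separated by 0.899 of the range. GPC3 changed by -1.25 on the log2 scale in the endometrium and by 1.64 in the oviduct from day 12 to day 18, with every library of day 18 on one side of day 12 in each tissue, and the difference between the tissues was not tested. Its endometrial call was lost without library 3 of day 12 and without library 1, 2 or 3 of day 18, and its oviductal call without library 2 of day 18.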

How the results depend on the processing

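Of 195 values of the named members' called changes under other settings than a left-out library, 183 kept their direction and their side of the threshold and 12 lost the call. With 1 library left out 161 of 249 did and 88 lost it, and 0 reversed. The 12 changes called in every such fit are all endometrial: SFRP1, SFRP2, CHI3L1, GJA1 and ENSSSCG00000022258 from day 12 to day 18, and GJA1, MFAP2, MMP2, PLEKHO1, BRINP2, ENSSSCG00000000125 and ENSSSCG00000004179 from day 3 to day 6. The count of ovarian members called was 2 (both lower) from day 3 to day 6 with only the 2 groups fitted, beside 0.0935% of all genes, and from day 12 to day 18 it was 26 by DESeq2 and 5 with all 7 days in 1 fit (all higher, beside 4.19% and 0.620% of all genes), against 0. DESeq2 called 4 oviductal members from day 3 to day 6 against 0, beside 0.146% of all genes. With libraries left out in turn the counts of members called in either direction ran from 16 to 34 in the endometrium from day 3 to day 6 (33 with all), and from day 12 to day 18 from 7 to 20 in the endometrium (24), 0 to 47 in the ovary (0) and 0 to 51 in the oviduct (46). In the fits with the lowest and highest counts, calls over all genes in the members' direction moved too. From day 3 to day 6 they were 578 of 15529 and 1151 of 15518. From day 12 to day 18 they were 175 of 15518 and 455 or 568 of 15525 in the endometrium. The ovary had 0 and 1149 of 15303, and the oviduct 0 and 1990 of 15495. The cause of these changes was not tested, except that fewer libraries were fitted. Without ovarian library 1 of day 12 the lowest ovarian mean fell on day 6 for 16 members (44 with it) and on day 12 for 68 (17). With libraries left out the cell cycle genes at a ratio of at most 0.5 in the oviduct ran from 1 to 12 (12 with all) and the matrix genes in the ovary from 2 to 5 (4). The rule gave 74 to 98 genes with libraries left out, 38 of the 93 members in every such run, 86 with trimmed-mean scaling (77 shared), 80 with medians (69 shared), 66 with at least 5 mean CPM on day 0 in every tissue, and 213 with 0.1 in place of 1 added to the mean, which lets in genes of low counts. No paired analysis was possible because the table's columns are numbered from 1 and the labels from 0, so that the replicate numbers of the labels cannot be matched to columns, and the days compared are of different gilts, so that a number shared between tissues of 1 day pairs no libraries between days. With 3 counts worth 0.223 to 0.335 CPM, low values such as those of CHI3L1 in the endometrium on day 6 (7, 4 and 2 counts) have a large counting error.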
